A study of Danio rerio with 16 samples.

Results

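The genotype by injury interaction asks whether the heart's transcriptional response to cryoinjury differs between wild-type zebrafish (WT) and tert mutants, which lack a working reverse transcriptase subunit of telomerase. For each gene it is the response of the mutants (KO cryoinjury minus KO control) minus the response of the wild type (WT cryoinjury minus WT control), on the log2(value + 1) scale. It uses all 16 libraries of the series, 4 in each of the 4 groups formed by genotype and injury, and was computed for all 14500 genes listed. The KO fish carried tert AB/hu3430, named as a KO mutant in the labels, and the hearts were labelled control or taken 3 days after cryoinjury, in which a cold probe kills part of the ventricle. All fish were adults of 6 to 9 months, and each library was polyadenylated RNA from a pool of 3 hearts, so a library averages 3 animals and every cell type of the heart. An interaction above 0 means a larger rise or a smaller fall in KO than in WT, and an interaction below 0 means a smaller rise or a larger fall.

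Telomerase adds telomeric repeats to chromosome ends and so sustains cells that divide many times. The adult zebrafish heart regenerates after injury: leukocytes clear the wound, the epicardium, endocardium and fibroblasts lay down matrix, and surviving cardiomyocytes at the border lose part of their contractile and oxidative programme and divide. The hu3430 allele is known as a nonsense mutation, and a transcript level therefore does not check the genotype. Mean tert levels were 1.45 units in WT control, 3.21 in WT cryoinjury, 6.09 in KO control and 6.59 in KO cryoinjury, so the transcript was higher in KO. The interaction for tert itself was -0.64 (SE 0.25, limma adjusted p = 0.55), with a rise in WT hearts (0.74, limma adjusted p = 0.00268) and a KO response of 0.10 (limma adjusted p = 0.674).

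The libraries held 5611576 to 14831664 reads over the listed genes. The cardiomyocyte gene myl7 read 10390 to 24270 normalized units across the 16 libraries, and nppa, made by atrial and stressed muscle, read 2241 to 4006. A principal component analysis used only the genes of highest variance. Its leading axis (74.7% of the variance of those genes) separated injured from control libraries. On the next (6.46%) values were 1.35 to 9.69 in WT and -4.79 to -1.875 in KO control libraries. KO cryoinjury libraries 3 and 4 were at 3.00 and -2.41. KO cryoinjury libraries 1 and 2 stood apart, at -14.2 and -17.7 against -4.79 to 9.69 in the other 14. These libraries read 337 and 887 units of krt5, a basal keratin of skin, against 4.68 to 75.4 in the rest, and krt5 was chosen after its values were seen. Results that rest on them are therefore given with and without them.

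Among genes chosen by their mean response, the median injury response was of similar size in both genotypes with the deposited scaling. The measure was the mean of the WT and KO responses, which in this balanced design is uncorrelated with the interaction if all groups have equal spread. Estimated library weights, lower for noisier libraries, were 0.81 to 1.08 in KO cryoinjury and 1.21 to 1.68 in WT cryoinjury, so equal spread is an approximation. By this measure 4387 genes rose (30.3% of the genes tested) and 4302 fell (29.7%) at a limma adjusted p under 0.05. Among the genes that rose, the median response was 0.69 in WT and 0.70 in KO, and among those that fell it was -0.48 and -0.47. Library totals as the scaling gave 7201 rises, with medians of 0.69 in WT and 0.59 in KO and 66% of them smaller in KO. They gave 1844 falls, with medians of -0.43 in WT and -0.47 in KO, so the likeness of the medians depended on the scaling. Of the 4387 that rose 15 had responses of opposite sign in the genotypes, and of the 4302 that fell 18 did. Opposite responses cancel in the mean, so choosing genes by it keeps these counts low. Genes such as irs2 (below), which fell in WT and rose in KO, tend to be left out. Taken alone, the WT response held 3506 higher genes (24.2%) and 3149 lower genes (21.7%), and the KO response 3649 (25.2%) and 3253 (22.4%).

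**Figure D1:**
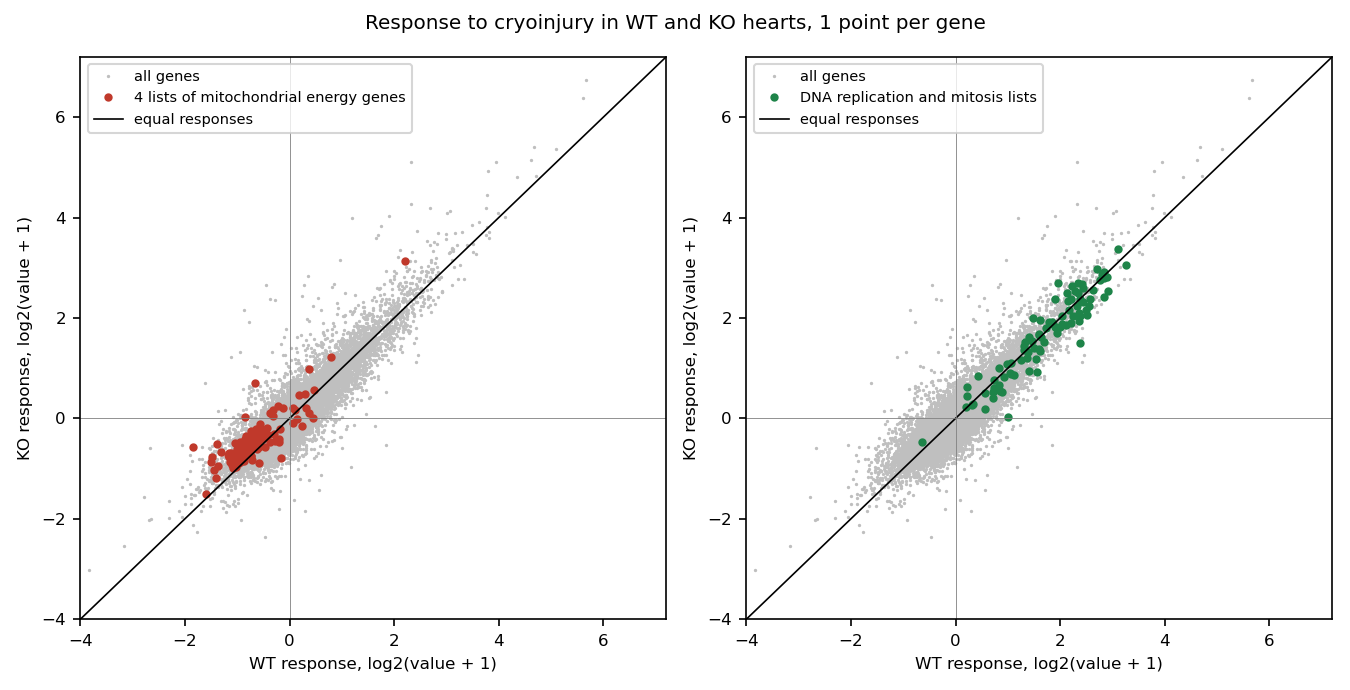
Response to cryoinjury in WT hearts (x axis) and KO hearts (y axis), both as a difference of log2(value + 1), with 1 grey point per gene and a line of equal responses. Red points are the genes of 4 mitochondrial energy lists, of which 158 of 176 lie above the line, and green points are the DNA replication and mitosis lists, which lie on both sides of it.

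No gene passed the test of the interaction itself. With limma 0 genes were higher and 0 lower at an adjusted p under 0.05 (0% each), and the smallest adjusted p was 0.112. At an unadjusted p under 0.05, 724 genes (4.99%) had a higher and 467 (3.22%) a lower interaction, 8.21% in all. That balance turned with library totals as the scaling, to 316 higher and 1095 lower. The quasi-likelihood test of edgeR on the recovered reads also gave 0 and 0, with 762 (5.26%) and 443 (3.06%) at an unadjusted p under 0.05, and limma voom gave 0 and 0, with 704 (4.86%) and 464 (3.2%). The Wald test of DESeq2 gave 25 higher genes (0.172%) and 3 lower (0.0207%) at an adjusted p under 0.05, with 735 (5.07%) and 347 (2.39%) unadjusted. Of the genes that fell, 14 had a smaller KO fall by that test and 0 a larger one. Of the genes that rose, 6 had a larger KO rise and 1 a smaller one. The verbs rose and fell are used below for injury responses that passed the limma test within a genotype or as the mean of both.

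The precision of the interaction set what could be seen. Its median SE was 0.22, and its 95% interval reached 0.45 to each side of the estimate in the median gene. The interval lay within -1 and 1, that is within a 2-fold difference of responses, for 82.5% of all genes, for 80.7% of those that rose and for 89.5% of those that fell. It lay within -0.5 and 0.5 for 29% of all genes, so smaller differences were not resolved for most of them. The estimates themselves were beyond 1 in 125 genes and below -1 in 48. The shares within 2-fold depended on the scale. Among rises the share was 71.3% with 0.5 in place of the 1 added before the log, and 97.8% with 10. It was 62.2% with limma voom and with DESeq2. Among falls the shares were 86.05% with 0.5, 98.08% with 10, 82.25% with voom and 80.88% with DESeq2. For rises over 2-fold it was 66.9% in the main fit, 34.7% with voom and 37.6% with DESeq2.

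Among the largest responses the balance of estimates depended on direction. Of the 272 genes whose mean response was a fall of more than 2-fold, 192 (70.6%) had a smaller fall in KO, with a median of -1.27 in WT and -1.11 in KO. At an unadjusted p under 0.05, 41 of them had a smaller KO fall and 3 a larger one. Of the 1372 genes that rose more than 2-fold, 792 had a larger rise in KO, with a median of 1.44 in WT and 1.52 in KO. At an unadjusted p under 0.05, 97 had a larger KO rise and 29 a smaller one. Over all genes, 4.99% had a higher and 3.22% a lower interaction at that level. Without KO cryoinjury libraries 1 and 2 the groups are unequal in size, so the mean response and the interaction are no longer uncorrelated. In that refit 156 of 256 genes had a smaller KO fall (32 against 6 at an unadjusted p under 0.05). The balance of the rise estimates turned without these libraries: of 1306, 628 were larger and 678 smaller in KO, with medians of 1.47 in both genotypes. At an unadjusted p under 0.05, 61 of these rises were larger and 32 smaller. That balance also turned with library totals as the scaling, where 1170 of 2019 were smaller and 849 larger in KO. Of these, 92 were smaller and 62 larger at an unadjusted p under 0.05, and the medians were 1.48 in WT and 1.43 in KO.

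Members of 47 gene lists were compared in the same way, each by its median and counts and with no test of the list. Over all genes the median interaction was 0.02 and 52.6% of genes were above 0. At an unadjusted p under 0.05, 4.99% of all genes were higher and 3.22% lower. By the limma test within a genotype, 24.2% of all genes rose and 21.7% fell in WT. In KO 25.2% rose and 22.4% fell. All list counts below are to be read beside these shares. The 4 lists of mitochondrial energy metabolism, the sarcomere list and the lists of fasting and skin genes had the medians farthest above that value among lists of 30 or more genes, and antigen processing and interferon genes had medians below -0.1. When libraries were scaled to their totals with no correction for composition, the median of all genes moved by -0.11, from 0.02 to -0.09. Relative to the median of all genes, every list kept its side of 0 under that scaling. New library scales move all interactions by nearly the same amount, so this was largely fixed in advance. In absolute terms 12 lists turned from above to below 0 with it: macrophage, cytokine, complement, provisional matrix, matrix protease, epicardium, cardiac ion handling, proteasome, chaperone, immediate early, thrombocyte and growth factor genes.

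**Figure D2:**
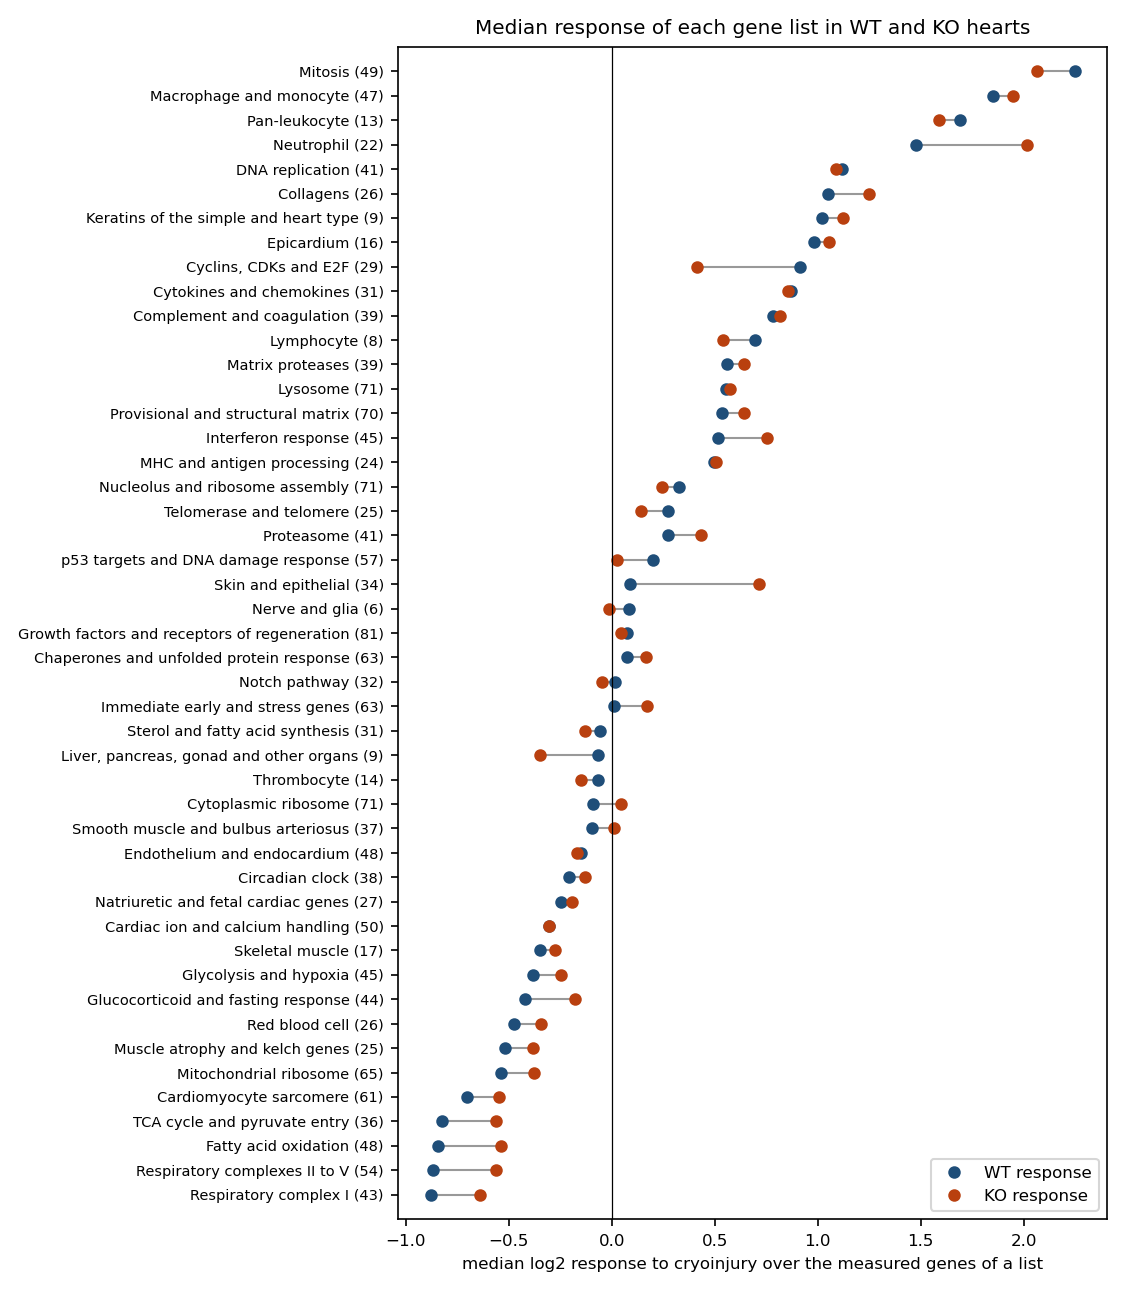
Median log2 response to cryoinjury over the measured genes of each of 47 lists in WT (blue) and KO (orange) hearts, with the number of genes in parentheses and a grey line for the difference. The lists with the deepest falls (complex I, complexes II to V, fatty acid oxidation, TCA cycle) have the KO point nearer to 0, and DNA replication and macrophage genes have points close together.

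Most genes of mitochondrial energy metabolism fell after injury in both genotypes, and most of their interactions were above 0. These genes encode the enzymes that burn fatty acids and pyruvate and the respiratory chain that makes most of the ATP of heart muscle. Fatty acid oxidation genes had a median response of -0.85 in WT and -0.54 in KO, with 38 of 48 past the test as lower in WT and 31 in KO, and 3 past it as higher in each genotype. Their median interaction was 0.35, 44 of 48 were above 0, and 22 (45.8%) were higher at an unadjusted p under 0.05 against 4.99% of all genes, with 0 lower. Subunits of complexes II to V went from -0.87 in WT (45 of 54 fell and 2 rose) to -0.56 in KO (42 fell and 2 rose), with 49 of 54 interactions above 0 and 22 (40.7%) higher at an unadjusted p under 0.05. The TCA cycle list (-0.83 and -0.56) had 32 of 36 above 0 and 15 (41.7%) at that level. Complex I (-0.88 and -0.64) had 37 of 43 above 0 and 14 (32.6%). None of these genes was lower at an unadjusted p under 0.05, and none passed the adjusted test with limma.

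The KO medians of these lists amounted to 63.4% of the WT median for fatty acid oxidation, 65.1% for complexes II to V, 68.2% for the TCA cycle and 72.9% for complex I. In injured hearts the median KO minus WT difference was 0.21 for fatty acid oxidation, 0.17 for complexes II to V, 0.17 for the TCA cycle and 0.21 for complex I, and in control hearts it was -0.06, -0.07, -0.06 and -0.03. By the mean over members the fatty acid oxidation list stood at 6.47 in WT and 6.27 in KO control hearts, and at 5.74 and 5.90 in injured hearts. Of its 48 genes, 5 were lower in KO control hearts past the limma test (1.08% of all genes were) and 3 higher in injured hearts (0.29%). As a mean over its members, the fatty acid oxidation list stood at 5.77, 5.79, 5.72 and 5.70 in WT cryoinjury libraries 1 to 4 and at 5.87, 5.86, 5.96 and 5.93 in KO cryoinjury, on the log2(value + 1) scale. Every KO cryoinjury library lay above every WT cryoinjury library, while the control libraries of WT (6.32 to 6.63) and KO (6.17 to 6.38) overlapped. In KO cryoinjury libraries 1 and 2 this list stood below the other KO cryoinjury libraries, and without them its median interaction was 0.43. The medians of complexes II to V, the TCA cycle and complex I without them were 0.38, 0.40 and 0.33. Relative to the median of all genes the 4 medians were 0.22 to 0.33 with the deposited scaling and 0.21 to 0.33 with library totals. Values relative to that median are nearly unchanged by any new library scale, so their closeness does not test the scaling.

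The comparison with other genes depended on the size of the fall. Among genes with a mean fall of 0.5 to 1, the 122 members of the mitochondrial lists had a median interaction of 0.28, with 95.9% above 0 and 44.3% higher at an unadjusted p under 0.05. The other 1641 genes with such falls had a median of 0.06, with 60% above 0 and 7.25% at that level, but their falls were also smaller (median WT response -0.70 against -0.90). Among genes with a mean fall over 1, the 265 outside these lists had a median interaction of 0.17, with 69.4% above 0 and 13.6% higher at that level. The libraries hold RNA of all cells of the heart, so fewer cardiomyocytes and less mitochondrial mRNA per cardiomyocyte cannot be told apart.

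Single genes of these lists are given with their values. The gene acadvl, which encodes the very long chain acyl-CoA dehydrogenase of fatty acid oxidation, read 2717, 2142, 2228 and 2217 units in WT control libraries and 986, 847, 681 and 788 in WT cryoinjury. In KO it read 2018, 2438, 2481 and 2503 in control and 1306, 1087, 1456 and 1302 in cryoinjury libraries. All KO cryoinjury libraries lay above all WT cryoinjury libraries and the control groups overlapped. It fell by 1.5 in WT and by 0.88 in KO on the log2 scale, with an interaction of 0.62 (SE 0.17, limma adjusted p = 0.384). In injured hearts it was higher in KO than in WT by 0.65 (limma adjusted p = 0.027), one of 42 genes higher there (0.29%), with 22 lower (0.152%).

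The complex II subunit gene sdhb read 310, 314, 354 and 358 in WT control and 166, 166, 162 and 197 in WT cryoinjury. KO control libraries held 310, 314, 313 and 344, and KO cryoinjury libraries 218, 204, 249 and 252. The 2 cryoinjury groups did not overlap, and the control groups did. Its interaction was 0.47 (SE 0.12, limma adjusted p = 0.384, DESeq2 adjusted p = 0.0496), and in injured hearts KO exceeded WT by 0.41 (limma adjusted p = 0.044). The interactions of the ATP synthase gene atp5pf (0.38), the cytochrome oxidase gene cox6a1 (ENSDARG00000054588, 0.39) and the complex I gene ndufb9 (0.37) were of the same sign. So were those of ndufa4b (0.63), which was placed in the complex I list by its name, and of the TCA cycle gene suclg1 (0.36). These other genes each had a limma adjusted p of at least 0.386.

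A pair of regulators of oxidative metabolism had larger estimates. The nuclear receptor gene esrra, a driver of mitochondrial genes, read 136, 111, 65.1 and 68.6 in WT control and 20.6, 30.02, 22.9 and 24.8 in WT cryoinjury. KO control libraries held 44.7, 35.3, 54.6 and 60.0 and KO cryoinjury libraries 23.8, 45.7, 22.2 and 43.1. The KO control libraries were all below the WT control libraries, though that difference missed the threshold (-0.91, limma adjusted p = 0.086), and the KO control and cryoinjury libraries overlapped. Its interaction was 1.29 (SE 0.36, limma adjusted p = 0.386, DESeq2 adjusted p = 0.0496). The gene pdk2 (ENSDARG00000020876), whose kinase holds back pyruvate entry into the TCA cycle, fell in WT by 0.86 and had a KO response of 0.03, with an interaction of 0.89 (limma adjusted p = 0.386). In control hearts pdk2 was lower in KO by 1.13 (limma adjusted p = 0.0044), one of 156 genes lower there (1.08%), with 59 higher (0.407%).

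Lists of protein synthesis genes had median interactions on both sides of 0. Mitochondrial ribosomal proteins had a median fall of -0.54 in WT and -0.38 in KO, and 59 of 65 interactions were above 0 (median 0.16), with 6 (9.23%) higher at an unadjusted p under 0.05. Among them mrpl37 fell in WT (-0.70) and had a KO response of -0.20 (interaction 0.50, SE 0.12, limma adjusted p = 0.384), and mrps35 had an interaction of 0.30 (limma adjusted p = 0.539). Cytoplasmic ribosomal proteins had a median response of -0.09 in WT and 0.04 in KO, with 68 of 71 interactions above 0 but a median of only 0.13 and 1 (1.41%) at that level. All 71 intervals lay within 2-fold. Genes of the nucleolus and ribosome assembly lay on the other side, with a median interaction of -0.08 and 22 of 71 above 0. At an unadjusted p under 0.05, 0 of them were higher and 2 (2.82%) lower, below the 3.22% of all genes lower. Their response was 0.33 in WT and 0.24 in KO. The ribosome biogenesis gene wdr12 rose in WT from a mean of 6.51 to 11.9 units (0.78), while in KO it was 7.78 and 8.45 (0.11), with an interaction of -0.68 (SE 0.17, limma adjusted p = 0.384).

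**Figure D3:**
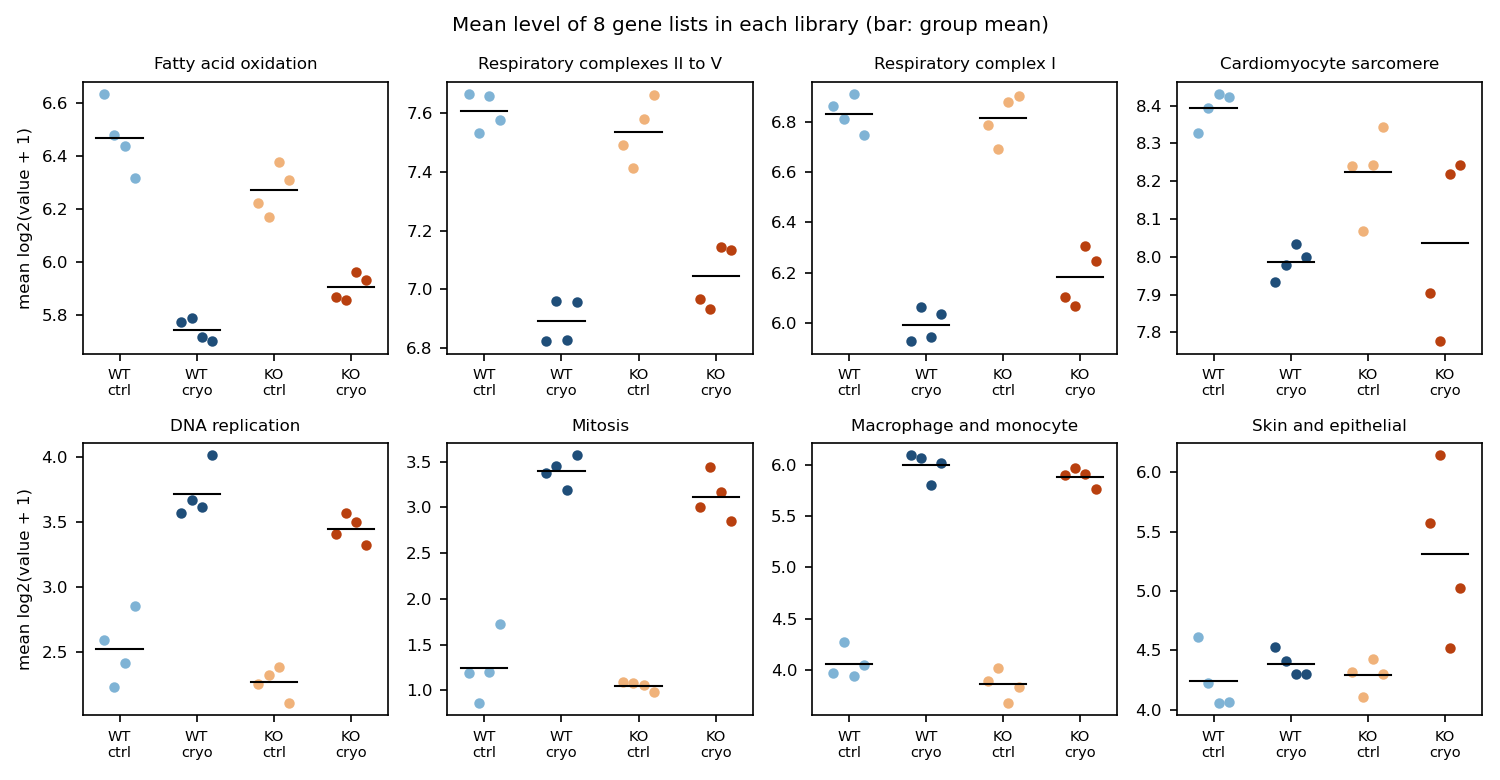
Mean log2(value + 1) over the members of 8 gene lists in each of the 16 libraries (points, libraries 1 to 4 from left to right within a group, and bars for group means). In the 3 mitochondrial panels most KO cryoinjury libraries lie above the WT cryoinjury libraries. In the cell division and macrophage panels the injured groups of both genotypes lie above the controls. Most KO cryoinjury libraries lie below the WT cryoinjury libraries in the cell division panels, and the injured groups overlap in the macrophage panel. In the skin panel KO cryoinjury libraries 1 and 2 are the highest.

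Sarcomere genes, which build the contractile apparatus, had a median response of -0.70 in WT and -0.55 in KO. Of 61 genes, 39 fell and 7 rose in WT, and 37 fell and 12 rose in KO. The median interaction was 0.24, 50 of 61 were above 0, and 9 (14.8%) were higher at an unadjusted p under 0.05 with 0 lower. The list mean was 7.93, 7.98, 8.03 and 7.998 in WT cryoinjury libraries and 7.90, 7.78, 8.22 and 8.24 in KO cryoinjury. KO cryoinjury libraries 1 and 2 lay below the WT cryoinjury libraries and libraries 3 and 4 above them, so the groups overlapped, and the median interaction without libraries 1 and 2 was 0.39. Not all members of the sarcomere list are structural. It also holds the mitochondrial creatine kinase genes ckmt2 (ENSDARG00000069615 and ENSDARG00000039929), which buffer ATP for the sarcomere. These genes fell by 1.41 and 1.29 in WT and by 0.85 and 0.77 in KO. Their interactions were 0.56 and 0.51 (limma adjusted p = 0.426 and 0.487), and reads of such close copies may be split between them. The thin filament capping gene tmod1 (0.29) and the calcium storage gene casq2 (0.41) had limma adjusted p of 0.511 and 0.539.

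Other muscle and signalling lists of the heart moved less. Cardiac ion and calcium handling genes had medians of -0.31 in WT and -0.30 in KO, and natriuretic and fetal cardiac genes -0.25 and -0.19. Muscle atrophy and kelch genes had -0.52 and -0.38, with 18 of 25 interactions above 0. Glycolysis and hypoxia genes had -0.38 and -0.25, and 35 of 45 interactions were above 0 with 7 (15.6%) higher and 1 lower at an unadjusted p under 0.05. The muscle kinase gene alpk3a fell by 1.04 in WT and by 0.45 in KO (interaction 0.59, SE 0.14, limma adjusted p = 0.384, DESeq2 adjusted p = 0.0256). The gene pfkfb4a, whose enzyme sets the level of a glycolytic activator, fell by 1.43 and 0.72 (interaction 0.70, SE 0.16, limma adjusted p = 0.384, DESeq2 adjusted p = 0.0496). The angiogenic ligand gene vegfa fell by 1.32 and 0.78 (interaction 0.54, SE 0.15, limma adjusted p = 0.384).

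The largest interaction among the best supported genes was that of irs2 (ENSDARG00000075282), an adaptor of the insulin and IGF receptors whose mRNA insulin is known to keep low in the mammalian liver. It read 60.7, 81.4, 70.7 and 101 units in WT control and 37.5, 27.6, 49.7 and 29.3 in WT cryoinjury libraries. It read 17.3, 13.7, 26.8 and 41.2 in KO control and 46.5, 45.2, 65.3 and 61.7 in KO cryoinjury. Injury thus moved it in opposite directions: all WT cryoinjury libraries were below all WT controls, and all KO cryoinjury libraries were above all KO controls. It fell by 1.12 in WT (limma adjusted p = 0.0022) and rose by 1.21 in KO (limma adjusted p = 0.0012), an interaction of 2.33 (SE 0.37, 95% interval 1.54 to 3.12, limma adjusted p = 0.112, edgeR adjusted p = 0.11, DESeq2 adjusted p = 3.97e-05). In control hearts irs2 was lower in KO by 1.72 (limma adjusted p = 0.0035), and in injured hearts the difference was 0.61 (limma adjusted p = 0.353).

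A lower KO control level was shared by several leading genes. They were picked by a small interaction p, and the control difference is part of the interaction. Their control differences are therefore partly built in by the choice and are given as descriptions. The gene pik3ip1, whose product restrains PI3 kinase, read 139, 92.6, 129 and 131 in WT control and 49.5, 42.1, 46.4 and 46.8 in WT cryoinjury. KO control libraries held 72.2, 55.9, 68.3 and 62.9, and KO cryoinjury libraries 44.4, 49.3, 49.6 and 46.5. The injured groups overlapped, and all KO controls lay below all WT controls. It fell by 1.38 in WT and by 0.44 in KO (interaction 0.94, SE 0.16, limma adjusted p = 0.112, DESeq2 adjusted p = 0.00024), with a control difference of -0.90 (limma adjusted p = 0.00057).

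The kinase gene snrkb, a relative of the energy sensor AMPK, read 294, 285, 285 and 322 in WT control, 243, 191, 275 and 182 in WT cryoinjury, 156, 100, 154 and 177 in KO control and 198, 228, 254 and 244 in KO cryoinjury. It fell in WT (-0.43) and rose in KO (0.67), so the injured groups reached similar levels from different controls, with an interaction of 1.104 (SE 0.22, limma adjusted p = 0.207, DESeq2 adjusted p = 0.0041). The gene midn, whose product in mammals promotes the breakdown of short-lived nuclear proteins, read 528, 320, 364 and 398 in WT control, 478, 417, 497 and 362 in WT cryoinjury, 122, 72.0, 141 and 198 in KO control and 255, 398, 456 and 474 in KO cryoinjury. Its WT response was 0.14 (limma adjusted p = 0.676), it rose by 1.61 in KO, and the interaction was 1.47 (SE 0.35, limma adjusted p = 0.384, DESeq2 adjusted p = 0.0256). The ubiquitin ligase gene rnf19b rose by 0.51 in WT and by 1.48 in KO (interaction 0.97, SE 0.19, limma adjusted p = 0.207), and the growth hormone receptor gene ghrb fell by 0.90 in WT with a KO response of 0.18 (interaction 1.07, SE 0.25, limma adjusted p = 0.384). Both were lower in KO control hearts, by 1.21 for rnf19b (limma adjusted p = 0.00017) and 0.99 for ghrb (limma adjusted p = 0.0094). The stress gene ifrd1 had the same form, with responses of -0.31 and 0.38 and an interaction of 0.69 (SE 0.17, limma adjusted p = 0.384).

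**Figure D4:**
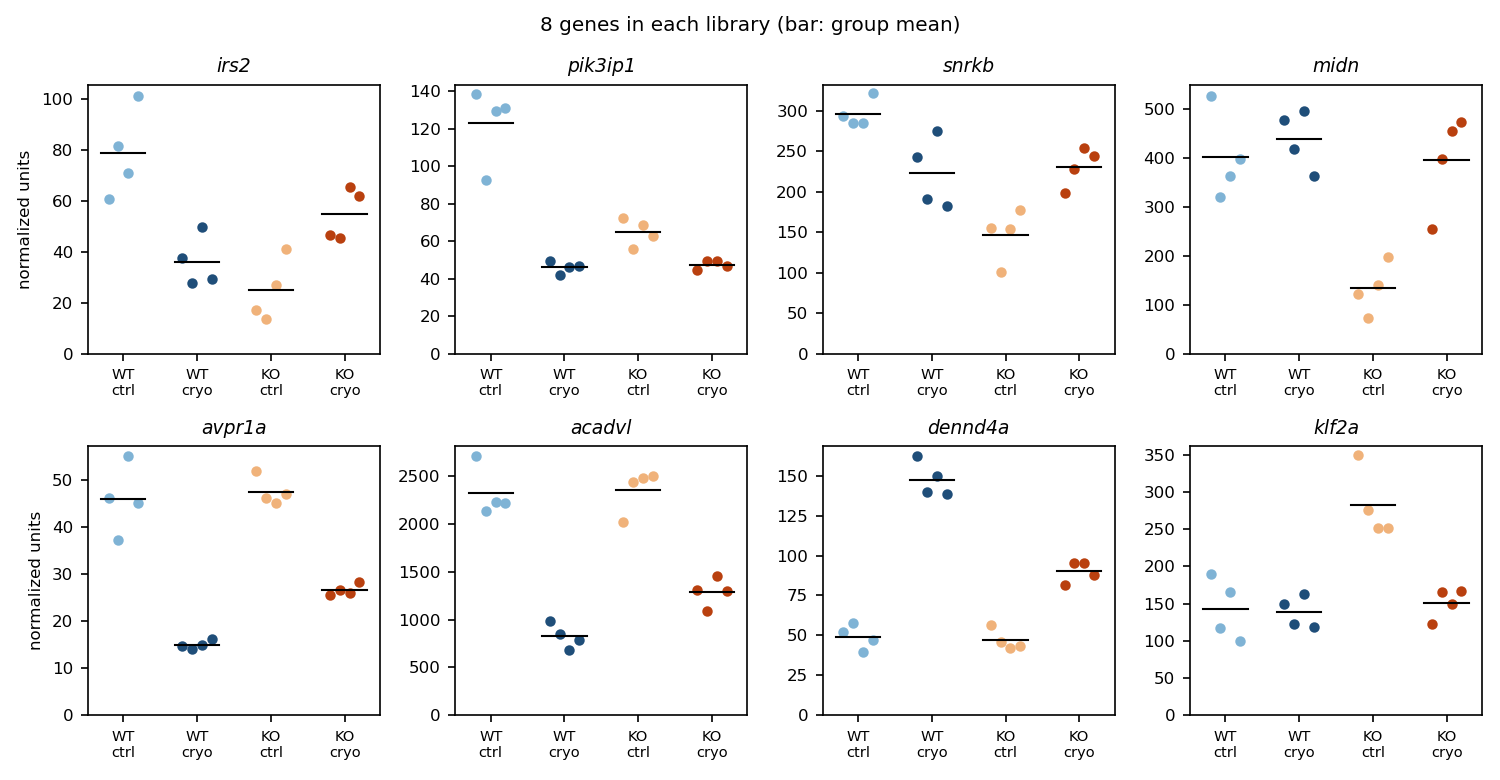
Normalized units of irs2, pik3ip1, snrkb, midn, avpr1a, acadvl, dennd4a and klf2a in each of the 16 libraries (points, libraries 1 to 4 from left to right within a group, and bars for group means), with axes from 0. The genotypes differ in control hearts for irs2, pik3ip1, snrkb, midn and klf2a and in injured hearts for avpr1a, acadvl and dennd4a.

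Fasting, clock and early genes included several with a different level in KO control hearts. Glucocorticoid and fasting genes had a median interaction of 0.27, with 29 of 44 above 0. At an unadjusted p under 0.05, 9 (20.5%) were higher, against 4.99% of all genes, and 0 lower. Their median response was -0.42 in WT and -0.18 in KO. Past the limma test 6 of 44 were lower in KO control hearts, against 1.08% of all genes. Leaving out KO cryoinjury library 1 moved the median interaction to 0.16, and a pseudocount of 10 moved it to 0.08. The autophagy kinase gene ulk1a fell in WT by 1.14 and had a KO response of -0.29 (interaction 0.85, limma adjusted p = 0.384), and the IGF binding protein gene igfbp6b had responses of -0.48 and 0.96 (interaction 1.44, SE 0.40, limma adjusted p = 0.386).

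Circadian clock genes had a median interaction of 0.13. At an unadjusted p under 0.05, 7 of 38 (18.4%) were higher, against 4.99% of all genes, and 1 lower. The repressor gene nr1d2a read 167, 274, 188 and 223 in WT control and 64.8, 60.7, 126 and 173 in KO control, and the injured groups overlapped at 152 to 220 in WT and 152 to 209 in KO. Its interaction was 1.203 (SE 0.36, limma adjusted p = 0.413), and that of the clock output gene tefa was -0.53 (limma adjusted p = 0.436). The time of day at which hearts were taken is not given in the labels, and its part in these values was not tested. Immediate early and stress genes, which switch on within minutes of a stimulus, went both ways: 10 of 63 (15.9%) were higher and 6 (9.52%) lower at an unadjusted p under 0.05, with a median of 0.02. The transcription factor gene egr1 read 30.1, 52.8, 14.0 and 12.1 in WT control, 28.4, 32.3, 35.9 and 42.0 in WT cryoinjury, 85, 134, 83.8 and 48.6 in KO control and 30.7, 29.5, 17.2 and 52.0 in KO cryoinjury. The KO controls were the highest group, but KO control library 4 lay below WT control library 2 and KO cryoinjury library 4, and the interaction was -1.99 (SE 0.55, limma adjusted p = 0.386).

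Overlapping controls and a difference after injury, as in acadvl and sdhb, were also seen in several other leading genes. The injured difference is part of the interaction by which these genes were picked, so it too is a description. The vasotocin receptor gene avpr1a (ENSDARG00000077083) read 46.2, 37.2, 55.2 and 45.2 in WT control and 14.7, 14.1, 14.8 and 16.2 in WT cryoinjury. KO control libraries held 51.9, 46.2, 45.1 and 47.1, and KO cryoinjury libraries 25.5, 26.6, 26.0 and 28.3. The control groups overlapped and every KO cryoinjury library lay above every WT cryoinjury library. It fell by 1.55 in WT and by 0.81 in KO (interaction 0.73, SE 0.14, limma adjusted p = 0.207, DESeq2 adjusted p = 0.0064). The endothelin receptor gene ednrab fell by 1.51 and 0.85 (interaction 0.66, SE 0.16, limma adjusted p = 0.384, DESeq2 adjusted p = 0.0494), with a mean of 33.1 units in WT and 53.6 in KO after injury. The transcription factor gene prox1, which acts in lymphatic endothelium and in heart muscle, fell by 1.54 and 0.97 (interaction 0.57, limma adjusted p = 0.386). In injured hearts these 3 genes were higher in KO (limma adjusted p = 0.0023, 0.011 and 0.042).

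Endothelial genes as a list had medians of -0.15 in WT and -0.17 in KO. At an unadjusted p under 0.05, 2 of 48 (4.17%) were higher and 6 (12.5%) lower, against 4.99% and 3.22% of all genes. The flow-responsive factor gene klf2a read 189, 117, 165 and 100 in WT control, 149, 123, 163 and 119 in WT cryoinjury, 350, 276, 252 and 252 in KO control and 123, 166, 150 and 167 in KO cryoinjury. The KO controls lay above all other libraries. It fell in KO by 0.89 and had a WT response of -0.01 (interaction -0.88, SE 0.25, limma adjusted p = 0.386), and in control hearts it was higher in KO by 1.01 (limma adjusted p = 0.0077). The Notch ligand gene dll4 fell in KO by 0.89 with a WT response of -0.22 (interaction -0.67, SE 0.18, limma adjusted p = 0.384). In the Notch pathway list 2 of 32 genes (6.25%) were lower at an unadjusted p under 0.05 and 0 higher, with a median of -0.03.

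Epicardial genes, which mark the outer layer that feeds matrix-producing cells into the wound, had medians of 0.98 in WT and 1.06 in KO. At an unadjusted p under 0.05, 3 of 16 (18.8%) were higher and 2 (12.5%) lower, against 4.99% and 3.22% of all genes. The epicardial factor gene tcf21 read 18.6, 20.4, 17.5 and 16.6 in WT control, 29.9, 43.7, 39.0 and 33.2 in WT cryoinjury, 30.2, 31.2, 29.7 and 24.3 in KO control and 34, 34.3, 43.2 and 33.4 in KO cryoinjury. The injured groups overlapped and all KO controls exceeded all WT controls. It rose by 0.95 in WT and by 0.32 in KO (interaction -0.63, SE 0.17, limma adjusted p = 0.384). The cardiac factor gene gata5 fell by 0.30 in WT and by 0.82 in KO (interaction -0.52, SE 0.14, limma adjusted p = 0.384), also from a higher KO control level (0.43, limma adjusted p = 0.041). The guidance ligand gene sema3d, expressed in epicardium, rose in KO by 0.87 with a WT response of 0.20 (interaction 0.66, limma adjusted p = 0.386).

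Smooth muscle and bulbus genes had medians of -0.10 in WT and 0.01 in KO, with 30 of 37 interactions above 0. At an unadjusted p under 0.05, 4 (10.8%) were higher, against 4.99% of all genes, and 0 lower. The elastin gene elnb, abundant in the bulbus arteriosus of fish, read 80.6, 100, 78.3 and 108 in WT control and 36.2, 35.14, 68.5 and 39.6 in KO control. After injury it read 24.3 to 51.4 in WT and 33.7 to 50.9 in KO, so the injured groups overlapped and the control groups did not. Its interaction was 1.23 (SE 0.32, limma adjusted p = 0.384), and that of the smooth muscle myosin gene myh11 was 0.55 (limma adjusted p = 0.567). The bulbus is a separate piece of the outflow tract, and the amount of it in each pool was not measured, so its part in these values was not tested.

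Interactions below 0 at an unadjusted p under 0.05 included 137 smaller KO rises among 4387 rises and 131 larger KO falls among 4302 falls. Both shares were near that of all genes lower at this level (3.22%). More genes went the other way, with 217 larger KO rises and 315 smaller KO falls. The 217 were a share of the rises near that of all genes higher at this level (4.99%). The 315 were a share of the falls above it. The gene dennd4a, an activator of Rab GTPases in membrane traffic, read 52.0, 58.0, 39.6 and 47.1 in WT control and 163, 140, 150 and 138 in WT cryoinjury. KO control libraries held 56.6, 46.0, 41.8 and 43.5, and KO cryoinjury libraries 81.6, 95.1, 95.6 and 87.8. The controls overlapped and every KO cryoinjury library lay below every WT cryoinjury library. It rose by 1.58 in WT and by 0.93 in KO (interaction -0.65, SE 0.16, limma adjusted p = 0.384, DESeq2 adjusted p = 0.0496). The matricellular gene ccn1, a target of YAP, rose in WT by 0.87 and had a KO response of -0.07 (interaction -0.94, SE 0.25, limma adjusted p = 0.384), and the membrane contact gene esyt1b rose in WT by 0.67 with 0.14 in KO (interaction -0.53, SE 0.15, limma adjusted p = 0.384). The nuclear factor genes irf2bpl (-0.89), nsd3 (-0.48) and rlf (-0.63) had WT responses within 0.11 of 0 and fell in KO. The genes zbtb2 (ENSDARG00000028086, -0.48), six5 (-0.63) and mdc1, a DNA damage mediator (-0.67), also had interactions below 0, and all 6 had a limma adjusted p of 0.384.

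Cell division genes, which mark cells in the cycle, rose for the most part in both genotypes. DNA replication genes had a median response of 1.12 in WT and 1.09 in KO, with 35 of 41 rising in WT and 33 in KO. Mitosis genes had 2.25 and 2.06, with 49 of 49 rising in WT and 48 in KO. At an unadjusted p under 0.05, 0 of 41 replication genes were higher and 2 (4.88%) lower, and 0 of 49 mitosis genes were higher and 1 (2.04%) lower, shares at or below those of all genes except the 4.88%, which stood against 3.22%. The 95% interval lay within 2-fold for 27 of 41 and 34 of 49, so a difference of that size was not bounded for the rest. The replication list stood at 3.57, 3.67, 3.62 and 4.01 in WT cryoinjury and 3.41, 3.57, 3.50 and 3.32 in KO cryoinjury libraries, and at 2.24 to 2.86 and 2.12 to 2.39 in controls. WT control library 4 was the highest control of this list and of the mitosis list (1.72 against 0.86 to 1.21 in the other control libraries). Without it the median interaction was -0.27 for mitosis and -0.12 for replication, against -0.07 and -0.01 with all libraries. For mitosis edgeR gave 0.09 and DESeq2 0.10, and leaving out 1 library at a time gave -0.27 to 0.04, so its sign was not settled.

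The median KO minus WT difference of replication genes was -0.22 in control and -0.28 in injured hearts, and that of mitosis genes -0.19 and -0.29, and among replication genes 1 was higher and 1 lower in KO control hearts past the limma test. The largest single estimates went both ways. The kinetochore gene cenpf rose in WT from a mean of 1.05 to 9.28 units and in KO from 1.23 to 5.32, and all KO cryoinjury libraries were below all WT cryoinjury libraries (interaction -0.88, SE 0.35, limma adjusted p = 0.55). The replication gene gins3 rose in WT by 1.01 and had a KO response of 0.02 from controls that were higher in KO (interaction -0.99, SE 0.24, limma adjusted p = 0.384). The helicase gene mcm6 rose by 1.97 and 2.69 (interaction 0.73, limma adjusted p = 0.618) and the mitotic inhibitor gene wee1 by 1.31 and 2.26 (interaction 0.95, limma adjusted p = 0.405), both from lower KO controls. Cyclins, CDKs and E2F genes had medians of 0.92 in WT and 0.41 in KO, while the median of their 29 interactions was -0.04, so the difference of the medians and the median of the differences were not alike.

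The p53 pathway and telomere lists each had at most 2 members past an unadjusted p under 0.05 in either direction. Of all genes 4.99% were higher and 3.22% lower at that level. Among p53 targets and DNA damage genes, 2 of 57 (3.51%) were higher and 2 lower at an unadjusted p under 0.05, with medians of 0.20 in WT and 0.03 in KO. The proapoptotic p53 target bbc3 fell in WT by 1.31 with a KO response of -0.06 (interaction 1.25, SE 0.38, limma adjusted p = 0.405), from a lower KO control level (-1.34, limma adjusted p = 0.018). Telomerase and telomere genes had 0 of 25 higher and 2 (8%) lower at that level, a share above the 3.22% of all genes. Their median responses were 0.28 in WT and 0.14 in KO, and tert is one of these genes.

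Most macrophage and monocyte genes rose in both genotypes. Macrophage and monocyte genes had a median response of 1.85 in WT and 1.95 in KO. Of 47, 41 rose in WT and 40 in KO, against 24.2% and 25.2% of all genes. At an unadjusted p under 0.05, 0 of 47 interactions were higher or lower, against 4.99% and 3.22% of all genes. The interval lay within 2-fold for 38 of 47. The cholesterol transfer gene npc2 rose by 1.56 and 1.36 (interaction -0.20, 95% interval -0.44 to 0.04), the leukocyte integrin gene itgb2 by 1.43 and 1.17 (-0.26, -0.59 to 0.07), and the lipid carrier gene apoeb by 3.95 and 5.103 (1.15, -0.02 to 2.33). Pan-leukocyte genes had medians of 1.69 and 1.59, cytokines and chemokines 0.87 and 0.86 (20 and 21 of 31 rose), and complement and coagulation genes 0.78 and 0.82 (23 and 25 of 39 rose, 3 and 4 fell). Lysosome genes had 0.55 and 0.58, with 66 of 71 intervals within 2-fold.

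Interferon and antigen processing genes had the lowest medians among lists of 20 or more genes. Interferon response genes had a median interaction of -0.11, with 0 of 45 higher and 4 (8.89%) lower at an unadjusted p under 0.05 against 3.22% of all genes. That median was -0.016 without WT cryoinjury library 4, -0.018 without KO control library 2, -0.015 with a pseudocount of 10 and -0.23 without KO cryoinjury libraries 1 and 2. The median response of interferon genes was 0.52 in WT and 0.76 in KO, so the difference of the medians and the median of the differences had opposite signs. In these hearts the KO minus WT difference had a median of 0.26 in control and 0.11 in injured libraries. The interferon regulator gene irf7 rose in WT by 0.48 with a KO response of -0.03 (interaction -0.52, SE 0.16, limma adjusted p = 0.426), and parp14rs1 rose by 1.43 and 0.70 (interaction -0.73, SE 0.22, limma adjusted p = 0.405). Antigen processing genes had a median of -0.19, with 7 of 24 above 0 and 1 (4.17%) lower at an unadjusted p under 0.05, among them the class I gene mhc1zea (-0.41, limma adjusted p = 0.532), a member of a multigene family whose reads may be split. The median response of antigen processing genes was 0.50 in WT and 0.51 in KO.

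More matrix genes rose than fell in both genotypes, and the KO medians were above those of WT. Collagens had medians of 1.05 and 1.25, with 21 of 26 interactions above 0 (median 0.14) and 2 (7.69%) higher at an unadjusted p under 0.05. Provisional and structural matrix genes had 0.53 and 0.64, and matrix proteases 0.56 and 0.64, with median interactions of 0.09 and 0.03. At an unadjusted p under 0.05, 3 of 70 provisional and structural matrix genes (4.29%) were higher and 4 (5.71%) lower. Of 39 matrix proteases, 5 (12.8%) were higher and 2 (5.13%) lower. The collagen XII gene col12a1 (ENSDARG00000019601) read 0.66 to 6.04 units in WT control and 0.54 to 0.78 in KO control, and 162 to 264 and 133 to 259 after injury. Its interaction of 1.08 (SE 0.46, limma adjusted p = 0.57) came with overlapping injured groups and controls of few units, where the log2(value + 1) scale compresses ratios.

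Neutrophil and epithelial genes had median interactions above 0 that were smaller without KO cryoinjury libraries 1 and 2. Neutrophil genes had a median response of 1.48 in WT and 2.01 in KO and a median interaction of 0.28, which was 0.05 without these libraries. Leaving out 1 library at a time gave 0.18 to 0.42, with 0.18 without KO cryoinjury library 2 or WT control library 2, and 0.19 without KO cryoinjury library 1, WT control library 4 or WT cryoinjury library 3. Skin and epithelial genes had 0.09 and 0.71, with a median interaction of 0.46 that was 0.27 without KO cryoinjury libraries 1 and 2. At an unadjusted p under 0.05, 10 of 34 (29.4%) skin and epithelial genes were higher, against 4.99% of all genes. The summed level of the neutrophil list was 1056, 1745, 892 and 839 units in KO cryoinjury libraries 1 to 4 and 865 to 1115 in WT cryoinjury, with library 2 of KO the highest. The summed level of the skin list was 3672 to 4488 units in WT control, 4620 to 5707 in WT cryoinjury, 3692 to 3990 in KO control and 5458 to 7744 in KO cryoinjury, where library 2 was the highest. Of its defining markers, epcam, cldni, tp63, krt4 and krt5 were measured. For the epithelial adhesion gene epcam KO cryoinjury libraries 1 to 4 held 10.1, 45.8, 0.167 and 3.90 units, with at most 2.48 in the other 12 and 0 in WT control library 3. The junction gene cldni held 21.2, 53.3, 0.501 and 9.58 there and at most 5.66 elsewhere, and the basal epithelial factor gene tp63 16.5, 34.4, 8.68 and 11.9 against 4.81 to 14.9 elsewhere. For the keratin gene krt4 the cryoinjury groups overlapped, at 678, 784, 638 and 605 in KO and 523 to 765 in WT. The part of epithelial tissue in these results was not tested.

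The gelatinase gene mmp9, made by neutrophils and by wound epithelium, read 106, 442, 21.7 and 39.6 in KO cryoinjury and 18.4, 10.1, 8.45 and 27.9 in WT cryoinjury, against 0.751 to 3.35 in controls of both genotypes. Its interaction was 2.79 (SE 0.89, limma adjusted p = 0.427) and 1.36 without KO cryoinjury libraries 1 and 2. The collagenase gene mmp13a read 14.2, 212, 10.3 and 4.45 in KO cryoinjury (2.78, limma adjusted p = 0.543, and 1.35 without them), and the hemidesmosome collagen gene col17a1b 21.2, 12.6, 0.334 and 7.02 (2.75, limma adjusted p = 0.468, and 1.54 without them). For krt5 the interaction was 2.699 (95% interval -0.06 to 5.46, limma adjusted p = 0.621) and 0.64 without them. The integrin gene itga6b (1.18, and 0.74 without them) and the keratin gene krt91 (0.87, and 0.53) had limma adjusted p of 0.405 and 0.51. The neutrophil genes lyz and npsn, in contrast, were highest outside these libraries, at 65.6 and 48.6 units in WT control library 4 against at most 4.19 and 21.5 in the other 15.

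Simple epithelial and heart keratins with lamins, a list of 9 genes, had medians of 1.02 and 1.12, with 9 of 9 interactions above 0 and 4 (44.4%) higher at an unadjusted p under 0.05. In that list the nuclear lamina gene lmna rose from 39.6, 36.5, 33.6 and 42.7 to 195, 215, 195 and 186 units in WT and from 21.0, 23.3, 23.9 and 28.4 to 170, 199, 170 and 161 in KO. The injured groups overlapped and all KO controls lay below all WT controls, with an interaction of 0.46 (SE 0.14, limma adjusted p = 0.413) and a control difference of -0.64 (limma adjusted p = 0.0035).

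Some of the largest responses had an interaction interval within 2-fold, as did 82.5% of all genes. The 19 genes given here were picked from the largest rises and falls with an interval within 2-fold, so their likeness is a description. Among rises, the thioredoxin gene txnb read 2.12, 2.24, 3.09 and 5.76 in WT control, 100, 99.0, 98.5 and 130 in WT cryoinjury, 2.1, 2.69, 2.44 and 2.35 in KO control and 104, 104, 86.0 and 90.9 in KO cryoinjury. Its responses of 4.71 and 4.84 gave an interaction of 0.12 (95% interval -0.42 to 0.67). The growth factor gene mdk (ENSDARG00000036036) rose by 3.63 and 3.91 (0.28, -0.31 to 0.88) and the nuclear import gene kpna2 by 3.76 and 3.65 (-0.11, -0.89 to 0.68). The other rises were adamtsl7, marcks (ENSDARG00000008803), myof (ENSDARG00000006112), sall1 (ENSDARG00000075891), the tubulin gene tubb5 and the protease inhibitor gene timp2 (ENSDARG00000075261), with interactions of -0.21 to 0.37.

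Among falls, the muscle ubiquitin ligase gene fbxo32 fell by 2.30 in WT and 1.99 in KO (0.31, -0.30 to 0.91), and a second one, trim63b, by 1.89 and 1.58 (0.31, -0.20 to 0.82). The cardiac transcription factor gene tbx5 read 63.0, 64.7, 78.5 and 56.5 in WT control, 20.4, 17.4, 17 and 16.5 in WT cryoinjury, 94.7, 93.2, 86.3 and 89.6 in KO control and 37.7, 29.6, 24.9 and 33.3 in KO cryoinjury. KO exceeded WT without overlap in both conditions, and the falls of 1.82 and 1.52 gave an interaction of 0.30 (-0.05 to 0.65). The orphan receptor gene gpr22 had an interaction of 0.29 (-0.03 to 0.61) and the connexin gene gja3 one of 0.18 (-0.20 to 0.55). In injured hearts tbx5, gpr22 and gja3 were higher in KO (limma adjusted p = 0.009, 0.0083 and 0.038), and in control hearts their differences of 0.47, 0.43 and 0.44 missed the threshold (limma adjusted p = 0.055, 0.053 and 0.089). The remaining falls, in klhl38, mtus1a, gfod2, tbx5b and the sarcomere gene lmod2 (ENSDARG00000045634), had interactions of -0.15 to 0.44.

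**Figure D5:**
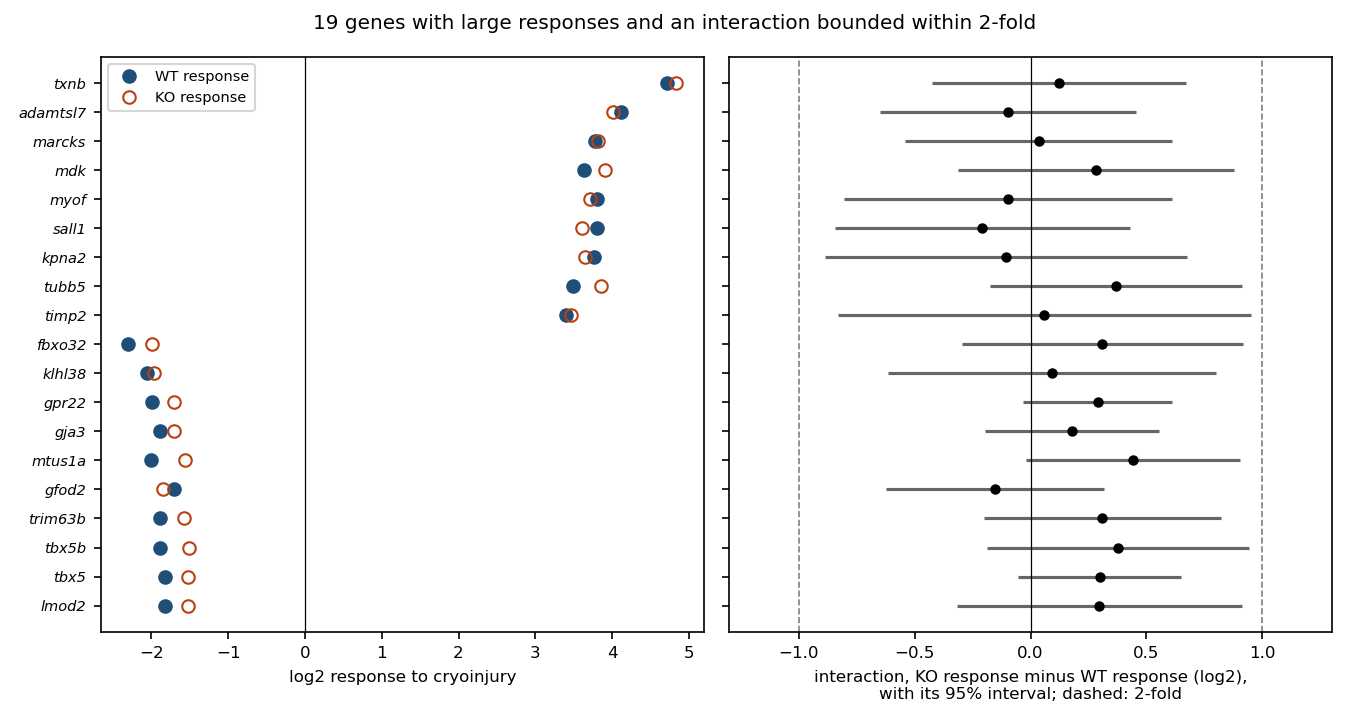
Left: log2 response to cryoinjury of 19 genes in WT (filled) and KO (open) hearts. Right: their interaction (point) with its 95% interval (line) and dashed lines at a 2-fold difference of responses; the genes were picked for intervals inside these lines, and all 9 rises exceed 3 in both genotypes.

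The remaining lists are given by their medians. Proteasome genes had medians of 0.27 in WT and 0.43 in KO, with 31 of 41 interactions above 0 and 6 (14.6%) higher and 1 lower at that level. Chaperones and unfolded protein response genes had 0.07 and 0.17, growth factors and receptors 0.07 and 0.04, and sterol and fatty acid synthesis genes -0.05 and -0.13. Red blood cell genes had -0.47 and -0.34, with a median interaction of 0.22 that was -0.12 without KO cryoinjury libraries 1 and 2. Thrombocyte genes had -0.07 and -0.15, lymphocyte genes 0.69 and 0.54 over 8 genes, skeletal muscle genes -0.35 and -0.28, genes of liver, pancreas, gonad and other organs -0.07 and -0.35 over 9 genes, and nerve and glia genes 0.09 and -0.01 over 6 genes.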

How the data were processed

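RNA sequencing was run on 16 libraries of polyadenylated RNA from pooled zebrafish hearts, prepared by TruSeq RNA v2, with each library's group read from its title. The labels call the 4 libraries of a group biological replicates, so p-values measure the spread between pools. The deposited table gives a normalized signal for 14500 genes, and no source states how the authors scaled it. Named without roles, per the submitters' processing notes, are Zv9, RSEM 1.2.3, CASAVA 1.8.2 and cutadapt. In every library 100% of values were whole multiples of 1 step within 0.01 read, so reads were recovered (5611576 to 14831664 per library) for the count tests. Every listed gene had at least 1.76 units in 4 or more libraries, and few reads stood behind the lowest genes, so differences in them were less detectable.

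The test was limma 3.58.1 (R 4.3.3) with an intensity trend on log2(value + 1), a model of the 4 group means with 12 residual and 5.12 prior degrees of freedom, and Benjamini-Hochberg adjustment over all 14500 genes. The scale understates changes of low genes and can make or hide an interaction in them. Responding genes were chosen by the mean of the WT and KO responses. Symbols came from a table of gene names that matched 11702 identifiers, and 1219 identifiers shared a symbol and are given as identifiers. Of 2633 list names, 1655 were matched, giving 1699 distinct genes, and lists overlap. The kit does not mark strand, and close gene copies may share reads.

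Named genes were tert, the 12 with the smallest interaction p in each direction among genes above the median level with a symbol, up to 3 per list, and the 10 largest rises and falls with an interaction bounded within 2-fold, and not every gene the rule took is described, some being not reported here. The members, lists and rules were chosen with earlier results of these data known. For genes picked by interaction p, the control and injured differences are parts of that interaction and share its libraries. Libraries of a group differed by more than sampling noise (chi-square per degree of freedom 6.7 to 18.8), so none was a copy. Alternatives were edgeR 4.0.16 quasi-likelihood, the DESeq2 1.42.0 Wald test, limma voom, DESeq2 size factors, library totals, a filter at a mean of 10 units, pseudocounts of 0.5 and 10, a replicate block, robust empirical Bayes, library weights, thinning to the smallest library, and leaving out each library. The limma fit was tested on simulated data.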

Additional observations from a re-analysis of the deposited data

Results flagged for a closer look

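Within groups of 4 libraries, 584 sets of values (the genes the text names and the list means) were checked for a library whose gap to the nearest other exceeded Dixon's 95% critical share of the group's range. Chance gives this in about 1 in 20 groups, and 41 met it, 3 of them in KO cryoinjury library 1 or 2. Values are normalized units for genes and means of log2(value + 1) for lists, each with the range of the other 3 libraries.

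In WT control, ifrd1 stood at 135.1 in library 2 (203.2 to 211.2) and acadvl stood at 2717 in library 1 (2142 to 2228). The gene col17a1b stood at 4.067 in library 1 (0 to 0.3861) and krt5 stood at 67.38 in library 1 (8.495 to 12.65). The gene mtus1a stood at 171.7 in library 3 (110.7 to 119.5) and gfod2 stood at 62.68 in library 3 (44.03 to 45.79). The gene lmod2 (ENSDARG00000045634) stood at 47.2 in library 4 (28.7 to 31.5) and the MHC and antigen processing list stood at 4.769 in library 2 (4.43 to 4.48). The growth factors and receptors of regeneration list stood at 3.62 in library 3 (3.738 to 3.752) and the lysosome list stood at 4.739 in library 2 (4.666 to 4.678). The gene lyz stood at 65.6 in library 4 (0.2636 to 1.592) and npsn stood at 48.6 in library 4 (0.3537 to 1.845). The gene epcam stood at 2.476 in library 1 (0 to 0.3953) and cldni stood at 5.659 in library 1 (0.2574 to 1.054).

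In WT cryoinjury, sdhb stood at 197.1 in library 4 (162.3 to 166.3) and nr1d2a stood at 220.5 in library 3 (152.5 to 163.8). The gene mmp13a stood at 9.265 in library 1 (2.455 to 3.597) and sema3d stood at 15.58 in library 2 (11.87 to 12.2). The gene vegfa stood at 116.5 in library 2 (94.27 to 97.1) and txnb stood at 130.5 in library 4 (98.5 to 100). The gene npsn stood at 21.46 in library 1 (3.957 to 6.42).

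In KO control, ifrd1 stood at 119.4 in library 4 (101.8 to 103.7) and mrpl37 stood at 43.3 in library 3 (38.77 to 39.03). The gene nsd3 stood at 22.22 in library 1 (19.21 to 19.41) and sdhb stood at 343.9 in library 4 (310.3 to 313.7). The gene acadvl stood at 2018 in library 1 (2438 to 2503) and pdk2 (ENSDARG00000020876) stood at 83.31 in library 1 (132.8 to 138.9). The gene elnb stood at 68.45 in library 3 (35.14 to 39.61) and col17a1b stood at 1.569 in library 4 (0.1346 to 0.3049). The gene gins3 stood at 2.439 in library 3 (1.75 to 1.801) and mcm6 stood at 3.506 in library 3 (2.941 to 3.002). The gene itgb2 stood at 60.49 in library 1 (52.6 to 53.72) and marcks (ENSDARG00000008803) stood at 0.1501 in library 1 (0.5385 to 0.6098). The gene epcam stood at 0.4039 in library 2 (1.765 to 1.951).

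In KO cryoinjury, tcf21 stood at 43.23 in library 3 (33.41 to 34.26) and myh11 stood at 67.93 in library 3 (87.69 to 90.98). The gene krt91 stood at 291.3 in library 2 (122 to 133.9) and mmp13a stood at 211.8 in library 2 (4.454 to 14.18). The gene gins3 stood at 1.448 in library 4 (2.135 to 2.17) and the sterol and fatty acid synthesis list stood at 3.75 in library 3 (4.063 to 4.121). The nerve and glia list stood at 3.379 in library 1 (2.767 to 2.822).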

How the results depend on the processing

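Interactions of the named genes, those picked for bounded responses aside, kept their sign in all the alternatives run except that of nppa (-0.087). It was 0.11 without KO cryoinjury libraries 1 and 2, 0.015 without WT cryoinjury replicate 3 and 0.036 without KO cryoinjury replicate 1. The replicate block and robust empirical Bayes cannot change an estimate in this balanced design. Most of these genes were picked for a small interaction p in these libraries, so their kept signs are a description. Calls changed between alternatives. DESeq2 called 25 genes higher and 3 lower, library weights called 2 higher (irs2 and pik3ip1, adjusted p = 0.0311 each), and without 1 library 0 to 3 were called. Without WT control replicate 2 these were pik3ip1, ifrd1 and avpr1a, and without KO control replicate 4 irs2. Correlations between same-number libraries of different groups were -0.054 to 0.19, with 4 of 24 above 0.1, and in 10 of 24 the own number gave the best match. Each KO control library best matched the KO cryoinjury library of its own number (0.042, 0.12, 0.099 and 0.19). Whether replicate numbers pair the libraries was therefore not settled. With a replicate block limma called 1 gene, irs2 (adjusted p = 0.0373).

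Genes higher at an unadjusted p under 0.05 numbered 564 to 875 and lower 399 to 638 without 1 library. With library totals they numbered 316 and 1095, and 250 were lower with the filter at a mean of 10 units. Bounded rises numbered 5985 with totals, 2160 with the filter and 1126 at a bound of 0.5, and bounded falls 1599 with totals and 1601 at 0.5. Rises smaller in KO at that p numbered 531 with totals and 71 with the filter. With totals 93 falls were smaller and 124 larger in KO, so the balance of all falls turned from 315 and 131 with the deposited scaling. Falls smaller in KO numbered 473 without KO cryoinjury libraries 1 and 2, and falls larger in KO 104 to 200 without 1 library. The filter tested fewer genes, and the totals moved the median of all genes by the shift given above.

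With library totals, list medians were -0.15 for cyclins, -0.049 for complement, -0.029 for provisional matrix, -0.057 for epicardium, -0.15 for endothelium, 0.075 for smooth muscle, -0.045 for ion handling, -0.12 for natriuretic genes and -0.20 for the nucleolus. They were 0.12 for complex I, 0.15 for complexes II to V, 0.23 for fatty acid oxidation, 0.14 for the TCA cycle, 0.062 for glycolysis, 0.047 for mitochondrial and 0.014 for cytoplasmic ribosomes, -0.028 for the proteasome and -0.0097 for chaperones. They were -0.17 for p53 targets, -0.18 for telomere genes, 0.012 for the clock, 0.16 for fasting genes, -0.13 for lymphocytes, -0.083 for growth factors, -0.15 for Notch, -0.12 for lysosomes, 0.048 for muscle atrophy and -0.092 for all genes.

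Without KO cryoinjury libraries 1 and 2 they were -0.023 for cytokines, 0.078 for endothelium, 0.39 for sarcomere, 0.12 for ion handling, 0.11 for natriuretic genes, 0.33 for complex I, 0.38 for complexes II to V, 0.40 for the TCA cycle, -0.23 for thrombocytes, 0.395 for skeletal muscle, -0.30 for nerve and 0.0036 for all genes. With the filter they were 0.10 for telomere genes, 0.063 for lymphocytes, 0.16 for sterol synthesis and 0.042 for all genes. A pseudocount of 10 gave 0.084 for fasting genes, 0.054 for muscle atrophy and 0.0043 for all genes, and voom gave 0.11 for lymphocytes.

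Leaving out 1 library gave medians of -0.032 to 0.10 for cytokines, -0.0695 to 0.077 for endothelium, 0.26 to 0.40 for fatty acid oxidation, 0.16 to 0.31 for fasting genes, -0.016 to 0.065 for growth factors, -0.25 to 0.093 for nerve, -0.14 to -0.028 for telomere genes and -0.092 to -0.0038 for p53 targets. The cause of these changes was not tested. For the 19 genes with bounded responses, the interval stayed within 2-fold in 466 refits and passed it in 65. Other list medians moved by less than the spread between libraries. Counts of bounded genes were not computed with edgeR, which gives no interval. With 4 pools a group, differences below the interval of each gene were not resolved.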
